A study of Saccharomyces cerevisiae with 6 samples.

Results

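Small nucleolar RNAs (snoRNAs) of the C/D box type that are made from polycistronic transcripts were examined in yeast strains with altered Rrp6, the 3′ to 5′ exoribonuclease of the nuclear RNA exosome. The 10 genes are 10 of the 11 C/D box snoRNA genes of 5 polycistronic clusters whose names are listed in the table of 6277 genes. They are snR190 and snR128 of 1 pair, snR41, snR67, snR55 and snR61, and snR77, snR76, snR73 and snR72 of the cluster that runs from *SNR78* to *SNR72*. Their genes are written *SNR190* and so on from here. The 5 clusters hold 17 genes, of which 11 are in the table; *SNR70*, which follows *SNR41*, is the listed gene that is not among the 10, and 6 others were not analysed here.

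Total RNA depleted of ribosomal RNA was sequenced from 3 strains, with 2 libraries each from individually selected clones. All strains were BY4741/4743 cells that lacked chromosomal *RRP6* and *MTR4*, carried *MTR4* on pRS416 and pRS415, and grew to mid-log phase in SD-His-Leu-Ura medium at 30 °C. They differed in pRS413, which was empty in *rrp6Δ*, held *RRP6* D238N, an allele without exoribonuclease activity, in Rrp6exo-, and held *RRP6* in WT. The *RRP6* alleles were thus expressed from a plasmid with a short upstream fragment of the gene as promoter, and WT here is a complemented deletion strain. *RRP6* itself averaged 6.25 ± 2.95 scaled counts in *rrp6Δ*, 19855 ± 1864 in Rrp6exo- and 20564 ± 1501 in WT (SD, n = 2 each), near 0 in *rrp6Δ* alone. A scaled count is the number of reads on a gene divided by 1 size factor per library, and the 6 libraries held 34.2 M to 39.5 M reads on the listed genes. Levels are relative to the other RNAs of a library, so a change in the amount of an RNA per cell and an opposite change in the other RNAs cannot be told apart.

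C/D box snoRNAs carry the short C and D boxes near their ends, bind Nop1, Nop56, Nop58 and Snu13, and pair with ribosomal RNA through a guide just before a D box, so that Nop1 methylates the ribose of 1 paired nucleotide. In yeast, a polycistronic precursor is cut between its snoRNAs by the RNase III enzyme Rnt1, the 5′ ends are trimmed by Rat1 and Xrn1, and the 3′ ends are trimmed by the nuclear exosome, in which Rrp6 removes the last nucleotides. A read on a snoRNA gene can come from the mature RNA or from a longer precursor, and the gene counts cannot tell these apart.

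The sequences of 6 of the snoRNAs are shown because the results turn on them: the 4 counted genes of the *SNR78* to *SNR72* cluster, which hold the 1 gene called by limma in both mutant strains, and the *SNR190*-*SNR128* pair. All 10 genes were matched in RefSeq, and the sequences are those of its R64 assembly, 5′ to 3′ on the gene's strand, with the first TGATGA (C box) and the last CTGA (D box) in capitals where these letters occur.

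SNR77: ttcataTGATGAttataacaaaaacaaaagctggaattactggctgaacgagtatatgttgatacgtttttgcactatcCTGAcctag

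SNR76: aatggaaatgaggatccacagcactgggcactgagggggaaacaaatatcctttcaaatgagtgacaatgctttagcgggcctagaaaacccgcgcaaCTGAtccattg

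SNR73: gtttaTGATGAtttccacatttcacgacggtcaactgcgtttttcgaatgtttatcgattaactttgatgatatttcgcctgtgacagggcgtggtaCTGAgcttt

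SNR72: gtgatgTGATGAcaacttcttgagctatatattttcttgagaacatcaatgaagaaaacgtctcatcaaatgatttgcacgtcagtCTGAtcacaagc

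SNR128: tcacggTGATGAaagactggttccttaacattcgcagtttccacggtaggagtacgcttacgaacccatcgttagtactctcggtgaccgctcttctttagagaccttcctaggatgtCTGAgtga

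SNR190: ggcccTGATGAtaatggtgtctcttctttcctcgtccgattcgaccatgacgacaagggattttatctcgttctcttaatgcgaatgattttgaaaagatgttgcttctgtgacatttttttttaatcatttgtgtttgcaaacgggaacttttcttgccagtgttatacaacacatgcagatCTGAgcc

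TGATGA and a later CTGA were found in 8 of the 10 genes (80%); *SNR41* and *SNR76* had no TGATGA on the gene's strand. The same pair of letters was found in 0.844% of 246336 windows of 98 bases of the nuclear genome, read on either strand, in 15 of 18 listed C/D genes with their own promoter (83.3%) and in 3 of 29 listed H/ACA genes (10.3%), which carry other boxes. No gene of the 10 overlapped another annotated gene, and 0 of their windows of 50 bases, the read length, occurred elsewhere in the genome.

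The annotated targets lie in both ribosomal RNAs. The guide of a target was taken as the longest stretch of the snoRNA that is complementary to the ribosomal RNA around the annotated nucleotide. The 10 genes have 12 annotated targets, and the 7 guides of 11 bases or more, a minimum chosen after the matches were seen, are shown next with the base that pairs with the annotated nucleotide in capitals.

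SNR72, for A876 of the large subunit rRNA: gatttgcacgTcag

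SNR77, for U578 of the small subunit rRNA: agctggaattAc

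SNR73, for C2959 of the large subunit rRNA: tcacgacgGtc

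SNR76, for C2197 of the large subunit rRNA: agcactGggca

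SNR61, for A1133 of the large subunit rRNA: cagttcTgctt

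SNR67, for U2724 of the large subunit rRNA: acactgaAaat

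SNR41, for A541 of the small subunit rRNA: ccaattgtTcc

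In 6 of these 7 guides the capital base lies 5 bases before the next NTGA, the exception being *SNR73*, where the next NTGA is 35 bases on. For the 5 targets not shown the longest stretch was of 4 to 10 bases, and 1 of these stretches, that of *SNR128*, had this spacing. How often matches this short occur by chance was not tested, so they need not be the guides. *SNR128*, known as U14, is annotated for C414 of the small subunit rRNA and is essential, being needed for release of that rRNA from its precursor. *SNR190* is annotated with a predicted target, G2395 of the large subunit rRNA, and *SNR55* with a predicted target, U1269 of the small subunit rRNA.

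**Figure D1:**
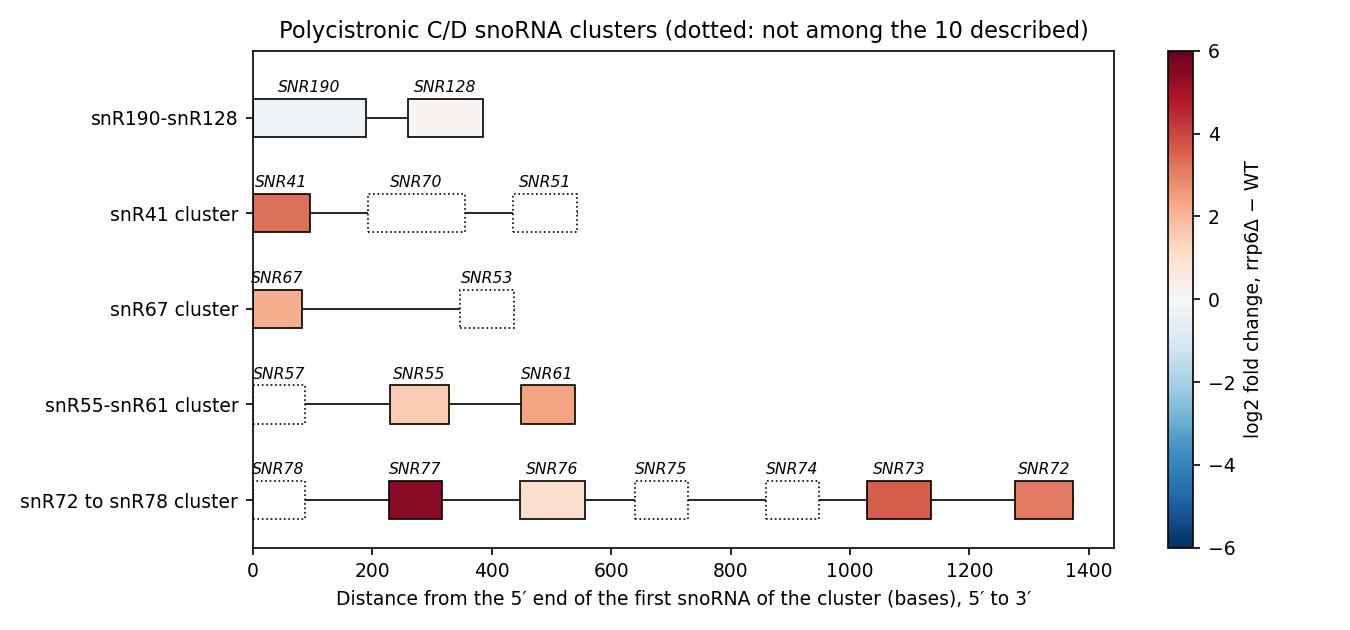
The 5 clusters drawn to scale from the 5′ end of the first snoRNA (x axis, bases), with each described gene coloured by its log2 fold change in *rrp6Δ* against WT and with dotted boxes for genes that are not among the 10. Colours run from -0.35 for *SNR190* to 5.40 for *SNR77*, and neighbours in a cluster differ in colour.

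The *SNR190*-*SNR128* pair lies on the minus strand of chromosome X, *SNR190* at 139761 to 139950 and *SNR128* at 139566 to 139691, 69 bases apart. These 2 genes held 83.6% to 92.0% of the reads of the 10 genes in the *rrp6Δ* and Rrp6exo- libraries and 98.4% to 98.6% in the WT libraries. Neither passed the threshold in limma in either mutant strain, the threshold being a Benjamini-Hochberg adjusted p under 0.05 over all genes in a fit on log2(scaled count + 1). *SNR128* had 12682 and 17721 scaled counts in *rrp6Δ*, 14659 and 15609 in Rrp6exo-, and 13539 and 14520.3 in WT. The *rrp6Δ* values of *SNR128* enclosed those of both other strains. Its log2 fold change was 0.10 (SE 0.16; limma adjusted p = 0.828) in *rrp6Δ* against WT and 0.11 (SE 0.16; limma adjusted p = 0.792) in Rrp6exo- against WT, and the unadjusted 95% intervals ran from -0.30 to 0.50 and from -0.29 to 0.51.

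*SNR190* had 27156 and 33599 scaled counts in *rrp6Δ*, 19908 and 33013 in Rrp6exo-, and 29799 and 49747 in WT. The second library was the higher one in every strain, and the strains overlapped. The log2 fold change was -0.35 (SE 0.33; limma adjusted p = 0.657) in *rrp6Δ* against WT and -0.59 (SE 0.33; limma adjusted p = 0.427) in Rrp6exo- against WT. Between libraries of the same number the change in Rrp6exo- was -0.58 and -0.59, and with the replicate number as a block the limma adjusted p was 0.0229, within a range of 0.0229 to 0.874 over the alternatives. *SNR190* fell in Rrp6exo- in that fit and in edgeR with the block. The labels do not give this pairing of libraries, which was read from the values themselves. Within a library the ratio of *SNR190* to *SNR128* was 2.14 and 1.90 in *rrp6Δ*, 1.36 and 2.12 in Rrp6exo-, and 2.20 and 3.43 in WT. Both mutant strains lay below WT in this ratio, with log2 differences of -0.45 in *rrp6Δ* and -0.70 in Rrp6exo-, and an exact permutation test of 2 libraries against 2 cannot give a p below 0.333.

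The cluster from *SNR78* to *SNR72* lies on the plus strand of chromosome XIII and holds 7 snoRNAs in 1374 bases. The 4 counted genes are *SNR77* (297506 to 297593) and *SNR76* (297725 to 297833), in the second and the third positions, and *SNR73* (298307 to 298412) and *SNR72* (298554 to 298651), in the last 2. *SNR73* rose in both mutant strains, and it was the 1 gene of the 10 that passed the threshold in limma in each, beside 0.112% of all genes called higher in *rrp6Δ* and 0.0637% in Rrp6exo-. *SNR73* had 4331 and 7203 scaled counts in *rrp6Δ*, 4111 and 3881 in Rrp6exo-, and 459.7 and 437 in WT. All 4 mutant libraries stood far above both WT libraries, and the WT libraries were close to each other. The log2 fold change of *SNR73* was 3.64 (SE 0.23; limma adjusted p = 0.0123), a 12.4-fold difference, in *rrp6Δ* against WT and 3.15 (SE 0.23; limma adjusted p = 0.0398), 8.90-fold, in Rrp6exo- against WT. *SNR73*, like *SNR67*, *SNR77* and *SNR55*, is among the genes that the study itself picked from these libraries to show, so the directions of these 4 genes are not independent evidence. In *rrp6Δ* the call of *SNR73* was lost when only the 4 libraries compared were fitted or when either Rrp6exo- or either WT library was left out, with limma adjusted p up to 0.0853, while the log2 fold change kept within 3.27 to 4.00. In Rrp6exo- it was lost when either Rrp6exo- or either WT library was left out, with limma adjusted p up to 0.193 and log2 fold changes of 3.11 to 3.19.

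*SNR72*, the last snoRNA of the transcript, had 201 and 374 scaled counts in *rrp6Δ*, 119 and 91.4 in Rrp6exo-, and 30.5 and 30.2 in WT. The 3 strains did not overlap, *rrp6Δ* being highest and WT lowest. Its log2 fold change was 3.14 (SE 0.34) in *rrp6Δ* against WT and 1.75 (SE 0.34) in Rrp6exo- against WT, with limma adjusted p of 0.0549 and 0.124. With the replicate number as a block the limma adjusted p values were 0.00263 and 0.0147, within ranges over the alternatives of 1.05e-10 to 0.302 and 0.00226 to 0.422, so *SNR72* passed the threshold in both strains in limma with the block. In limma without it, *SNR72* passed in *rrp6Δ* only with libraries rescaled to the same total (adjusted p = 0.0341) or the same upper quartile (adjusted p = 0.0471), and in Rrp6exo- under no scaling run.

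*SNR77* had 354 and 1106 scaled counts in *rrp6Δ*, 47.6 and 30.1 in Rrp6exo-, and 3.93 and 43.7 in WT. Both *rrp6Δ* libraries stood above all others, whereas the Rrp6exo- libraries lay around the second WT library, which had 42 reads where the first had 4. The log2 fold change was 5.40 (SE 1.09; limma adjusted p = 0.138) in *rrp6Δ* against WT and 1.39 (SE 1.09; limma adjusted p = 0.573) in Rrp6exo- against WT. The value in *rrp6Δ* was 3.81 without the first WT library and 6.99 without the second. With the block the limma adjusted p in *rrp6Δ* was 0.00890, within a range of 0.00388 to 0.604 over the alternatives, and in Rrp6exo- the sign of the change depended on which WT library was kept, being -0.20 without the first and 2.98 without the second.

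*SNR76* was counted on 11 and 19 reads in *rrp6Δ*, 14 and 15 in Rrp6exo-, and 8 and 5 in WT, or 11.5 and 17.6, 13.6 and 15.6, and 7.86 and 5.2 scaled counts. The mutant libraries stood above the WT libraries, and the 2 mutant strains overlapped. The ratio of summed reads, corrected for the size factors, was 2.24 for *rrp6Δ* against WT (95% exact interval 1.13 to 4.68) and 2.22 for Rrp6exo- against WT (1.117 to 4.65), intervals that cover counting error only. In limma the log2 fold changes of 1.04 and 1.07 had adjusted p of 0.268 and 0.253.

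**Figure D2:**
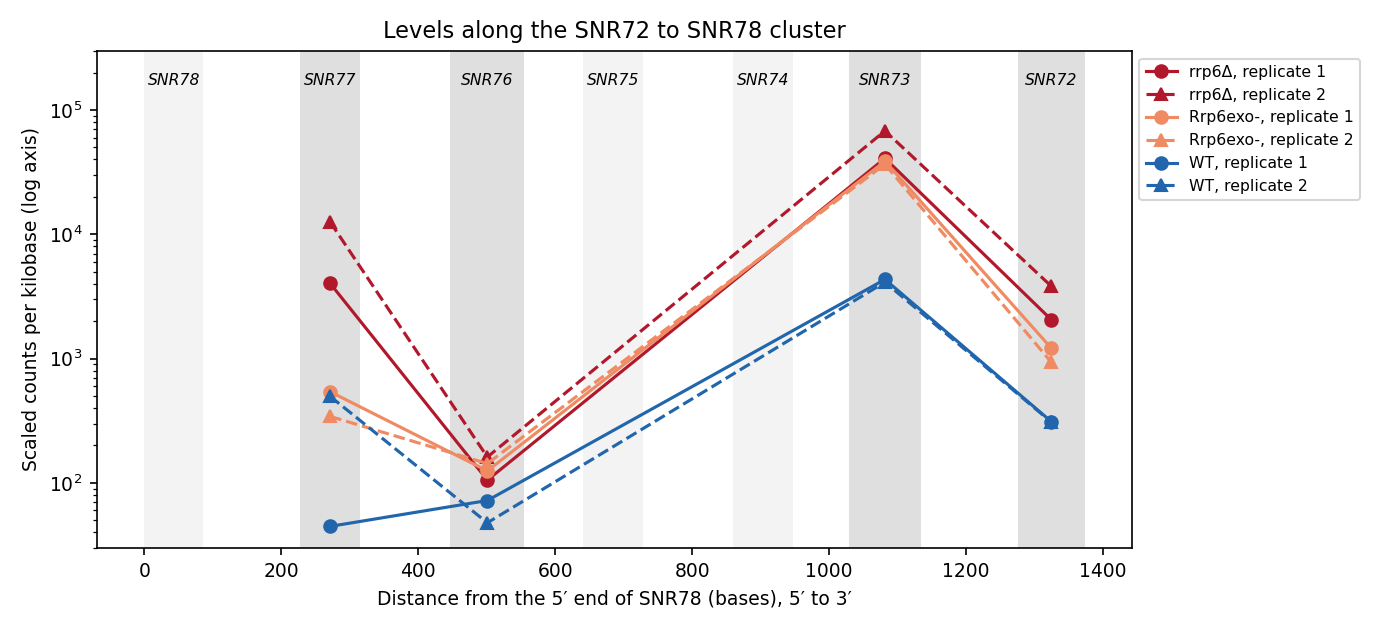
Scaled counts per kilobase (log y axis) of the 4 counted genes against distance from the 5′ end of *SNR78* (x axis, bases), with 1 line per library and paler bands for the 3 genes that were not analysed. *SNR73* is highest in every library, *SNR76* is at 161 or below throughout, and the *rrp6Δ* libraries at *SNR77* stand apart at 4026 and 12564.

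Members of this cluster therefore differed in counts per kilobase and in change, although they are cut from the same transcript. How evenly the libraries captured RNAs of 88 to 109 bases was not tested, so a gap in counts between genes need not be an equal gap in RNA amount. Per kilobase of gene, *SNR73* averaged 54404 ± 19156 scaled counts in *rrp6Δ*, 37698 ± 1536 in Rrp6exo- and 4228 ± 153 in WT, against 133 ± 39.8, 134 ± 12.9 and 59.9 ± 17.3 for *SNR76* (SD, n = 2 each). *SNR73* took 82.8% to 96.6% of the reads of the 4 counted genes in every library. The ratio of *SNR73* to *SNR72* was 21.5 and 19.3 in *rrp6Δ*, 34.7 and 42.5 in Rrp6exo-, and 15.1 and 14.5 in WT. The strains did not overlap in this ratio, Rrp6exo- being the highest, and its log2 differences from WT were 0.50 in *rrp6Δ* and 1.41 in Rrp6exo- (exact permutation test, two-sided, p = 0.333 each, the smallest possible). The ratio of *SNR77* to *SNR72* was 1.76 and 2.96 in *rrp6Δ*, 0.402 and 0.33 in Rrp6exo-, and 0.129 and 1.45 in WT. Only *rrp6Δ* had both libraries above 1, and the WT libraries lay on either side of Rrp6exo-. A total of 8 pairs of members were compared in this way, and none could reach a p below 0.333 in any comparison.

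*SNR55* (chromosome XII, 794697 to 794794, minus strand) and *SNR61* (794486 to 794575) are the second and the third snoRNAs of a cluster of 3, with 121 bases between them. *SNR55* had 406 and 743 scaled counts in *rrp6Δ*, 202 and 146 in Rrp6exo-, and 174 and 215 in WT. Both *rrp6Δ* libraries stood above the others, and Rrp6exo- overlapped WT. The log2 fold change was 1.50 (SE 0.33; limma adjusted p = 0.147) in *rrp6Δ* against WT and -0.17 (SE 0.33; limma adjusted p = 0.852) in Rrp6exo- against WT, and with the block the adjusted p in *rrp6Δ* was 0.0209, within 0.00125 to 0.604 over the alternatives. *SNR61* was counted on 6 and 16 reads in *rrp6Δ*, 10 and 11 in Rrp6exo-, and 3 and 0 in WT. Its mutant libraries stood above the WT libraries, and the count of 0 allows up to 3 reads, or 3.12 scaled counts. The ratio of summed reads was 7.12 (95% exact interval 2.14 to 37.1) for *rrp6Δ* against WT and 6.96 (2.08 to 36.4) for Rrp6exo- against WT. In limma *SNR61* had adjusted p of 0.213 and 0.205, and it passed the threshold in none of the 17 alternatives run in either comparison.

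The ratio of *SNR55* to *SNR61* was 65.0 and 50.1 in *rrp6Δ*, 20.8 and 12.8 in Rrp6exo-, and 59.0 in the first WT library, the second WT library having no read on *SNR61*. *SNR61* thus took a larger part in both Rrp6exo- libraries than in both *rrp6Δ* libraries, on 10 and 11 reads against 6 and 16. The ratio in the first WT library rests on 3 reads of *SNR61*, too few to place WT beside either mutant strain.

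*SNR67* (chromosome V, 61352 to 61433, plus strand) is the first of 2 snoRNAs and lies 265 bases from the next. *SNR67* had 179 and 577 scaled counts in *rrp6Δ*, 43.7 and 37.4 in Rrp6exo-, and 32.4 and 147 in WT. Both *rrp6Δ* libraries stood above all others, and the 2 WT libraries enclosed those of Rrp6exo-. The log2 fold change was 2.20 (SE 0.82; limma adjusted p = 0.268) in *rrp6Δ* against WT and -0.76 (SE 0.82; limma adjusted p = 0.698) in Rrp6exo- against WT, and 1 WT library moved both. Without the first WT library the values were 1.13 in *rrp6Δ* and -1.83 in Rrp6exo-, and without the second they were 3.27 and 0.31. With the block the limma adjusted p in *rrp6Δ* was 0.0339, within 0.0218 to 0.665 over the alternatives.

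*SNR41* (chromosome XVI, 719148 to 719242, minus strand) is the first of 3 snoRNAs, 97 bases before *SNR70* (718887 to 719050). *SNR41* was counted on 14 and 20 reads in *rrp6Δ*, 20 and 24 in Rrp6exo-, and 0 and 2 in WT. All mutant libraries stood above both WT libraries, Rrp6exo- being no lower than *rrp6Δ* in either replicate, and the count of 0 allows up to 3 reads, or 2.95 scaled counts. The ratio of summed reads was 16.5 (95% exact interval 4.23 to 142) for *rrp6Δ* against WT and 21.9 (5.70 to 186) for Rrp6exo- against WT. The log2 fold changes were 3.31 in *rrp6Δ* against WT and 3.71 in Rrp6exo- against WT, with 2.502 and 2.90 when the first WT library was left out and 4.12 and 4.52 when the second was. The limma adjusted p values of 0.124 and 0.0850 became 0.0131 and 0.00780 with the block, within ranges over the alternatives of 0.0131 to 0.598 and 0.00780 to 0.330.

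*SNR70*, which comes from the same transcript and is annotated with a predicted target, C1639 of the small subunit rRNA, had 753 and 883 scaled counts in *rrp6Δ*, 616 and 619 in Rrp6exo-, and 915 and 1018 in WT. Both mutant strains lay below WT, with log2 fold changes of -0.24 (SE 0.13; limma adjusted p = 0.424) and -0.64 (SE 0.13; limma adjusted p = 0.129). With the block the limma adjusted p in Rrp6exo- was 0.0121, so that in this fit *SNR41* rose and *SNR70* fell in the same strain. *SNR41* made up 1.90% and 2.06% of the reads of the 2 genes in *rrp6Δ*, 3.06% and 3.87% in Rrp6exo-, and 0% and 0.204% in WT.

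**Figure D3:**
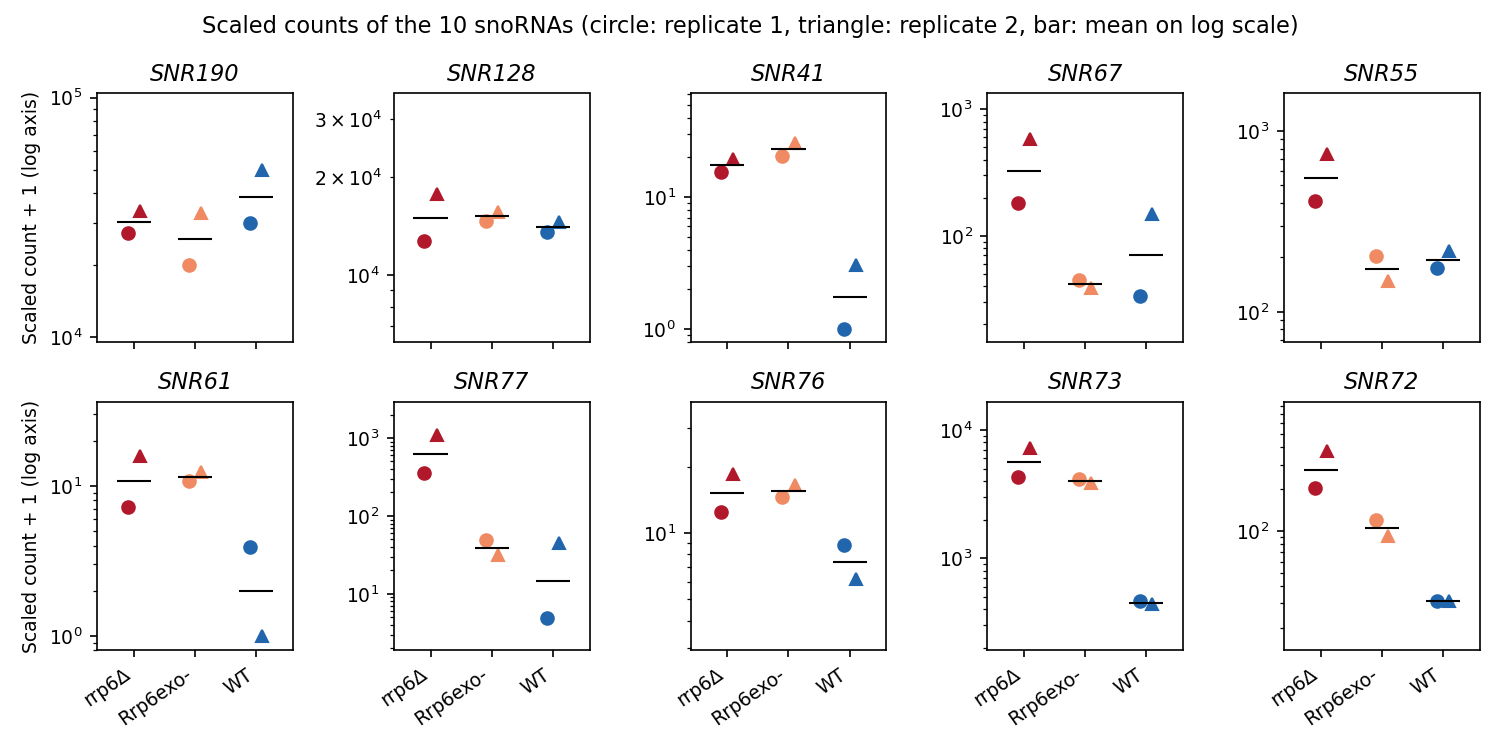
Scaled counts plus 1 (log y axis, 1 scale per gene) of the 10 snoRNAs in the 2 libraries of each strain, with a bar at the mean on the log scale. Both mutant strains lie above WT for *SNR41*, *SNR61*, *SNR76*, *SNR73* and *SNR72*, *rrp6Δ* alone does for *SNR67*, *SNR55* and *SNR77*, and for *SNR190* and *SNR128* the *rrp6Δ* and WT libraries overlap.

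Over the 10 genes, limma called 1 higher and 0 lower in *rrp6Δ* against WT, beside 0.112% of all genes called higher, and 1 higher and 0 lower in Rrp6exo- against WT, beside 0.0637%. Genes called lower were 0.0637% and 0.0478% of all genes in these comparisons. With the block, 6 genes were called higher in *rrp6Δ* (*SNR73*, *SNR72*, *SNR77*, *SNR41*, *SNR55* and *SNR67*), beside 5.43% of all genes called higher and 6.04% lower, and 3 higher (*SNR73*, *SNR41* and *SNR72*) and 1 lower (*SNR190*) in Rrp6exo-, beside 5.7% and 7.04%. DESeq2 called 5 higher in *rrp6Δ* (3.17% of all genes) and 3 higher in Rrp6exo- (3.15%). Both libraries of *rrp6Δ* stood above both of WT for 8 of the 10, as did 25.1% of all genes, and both of Rrp6exo- for 6 of the 10, as did 21.7%. The sixth in Rrp6exo- was *SNR128*, with a log2 fold change of 0.11. None of the 10 had both libraries of *rrp6Δ* below both of WT, as 24.9% of all genes did, or both of Rrp6exo-, as 23.5% did. The median log2 fold change of the 10 was 2.32 in *rrp6Δ* against WT and 1.23 in Rrp6exo- against WT, and that of all genes was 0.01 in both. Rescaling each library to the same total moved the all-gene median to 0.16 in *rrp6Δ* and 0.12 in Rrp6exo- and the median of the 10 to 2.43 and 1.33.

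**Figure D4:**
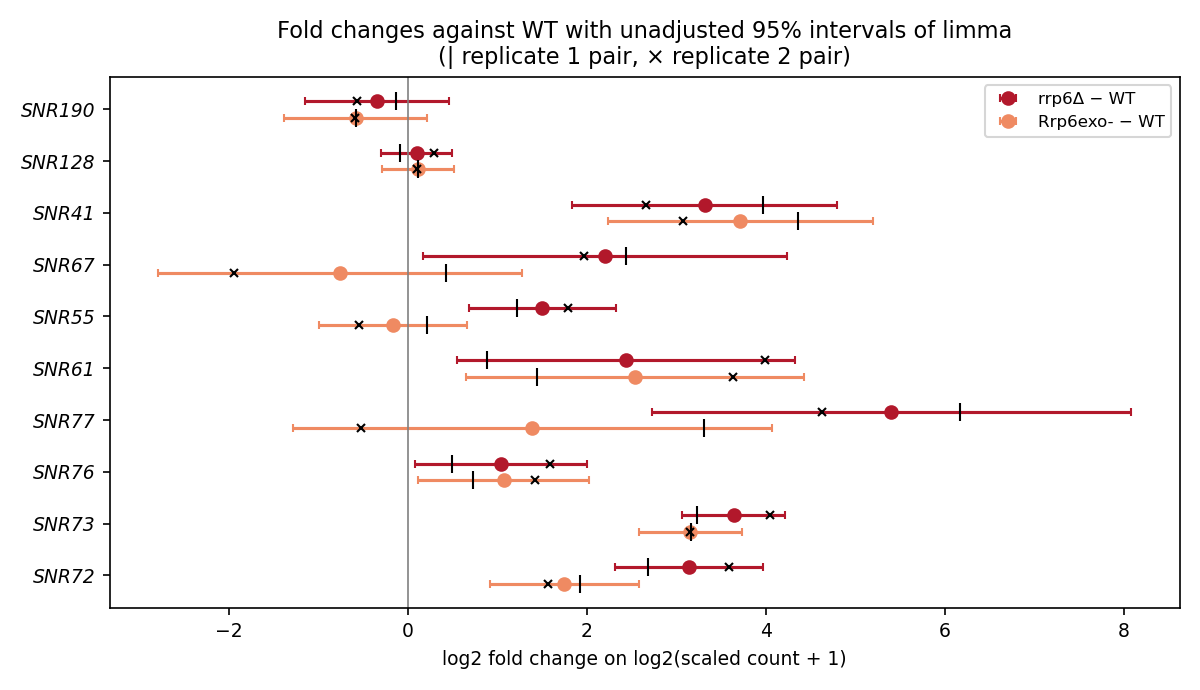
Log2 fold changes of the 10 snoRNAs against WT (x axis) with the unadjusted 95% intervals of limma, for *rrp6Δ* above Rrp6exo- in each row, and with the change between libraries of the same number marked. For *SNR73* the values of 3.64 and 3.15 lie near each other with narrow intervals, whereas for *SNR77* and *SNR67* the Rrp6exo- interval spans 0.

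Against Rrp6exo-, *rrp6Δ* was at least 2-fold higher for 4 genes, *SNR77* (log2 fold change 4.01), *SNR67* (2.96), *SNR55* (1.67) and *SNR72* (1.39), beside 0.828% of all genes, and 0.48 for *SNR73*. Both *rrp6Δ* libraries stood above both Rrp6exo- libraries for these 5 genes, as did 17.3% of all genes, and below them for *SNR41*, as did 15.9%. limma called 0 of the 10, and over all genes 1 lower (0.0159%) and 0% higher. The 1 gene called lower was *RRP6*, the deleted gene itself. In limma 343 genes (5.46%) had an unadjusted p under 0.05, and the lowest adjusted p of the 10 was 0.876 with limma and 0.105 with the block. DESeq2 called *SNR55* (adjusted p = 0.00200) and *SNR67* (adjusted p = 0.0146), beside 0.335% of all genes called higher. For *SNR61* and *SNR76* the 2 strains had near equal reads, 22 against 21 and 30 against 29, with ratios of 1.02 (95% exact interval 0.537 to 1.96) and 1.01 (0.586 to 1.74), intervals that span 1. The ratio for *SNR41* was 0.755 (0.468 to 1.21).

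The *rrp6Δ* libraries also differed from each other. All 10 genes were higher in the second *rrp6Δ* library than in the first, by a median of 0.80 on the log2 scale, whereas 48.5% of all genes were. In Rrp6exo- the second library was higher for 5 of the 10, beside 51.3% of all genes, and in WT for 6 of the 10, beside 48.0%. *SNR77* was 3.18 higher in the second WT library on that scale. The RNA integrity number ranged from 6.1 to 8.9 over the samples and is not given per library, so its part in these differences was not tested.

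Set beside the other snoRNA classes in the table, the 18 listed C/D genes with their own promoter had a median log2 fold change of 1.17 in *rrp6Δ* against WT, with 10 of 18 at least 2-fold higher, and -0.13 in Rrp6exo- against WT, with 4 of 18. The corresponding counts of the polycistronic genes described here were 8 of 10 in *rrp6Δ* and 6 of 10 in Rrp6exo-, and those of all genes were 3.28% and 3.06%. These counts leave out *SNR70*, the other listed gene of the clusters, which had log2 fold changes of -0.24 and -0.64. The 29 H/ACA genes had medians of -0.03 and -0.24, with 2 and 1 at least 2-fold higher. The 2 listed intronic C/D genes had medians of 1.81 and -0.40.

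In medians, gene length and level moved with these values, but not in every gene. The 8 polycistronic genes of 82 to 109 bases had a median log2 fold change of 2.78 in *rrp6Δ* against WT and 1.57 in Rrp6exo- against WT, while *SNR128* and *SNR190*, of 126 and 190 bases, had a median of -0.13 and -0.24. In WT the 8 shorter genes had 10.9 to 4228 scaled counts per kilobase, and the 2 longer ones had 111345 and 209333. *SNR70*, of 164 bases, had 5895 scaled counts per kilobase in WT and log2 fold changes of -0.24 and -0.64. Of the genes with their own promoter, the 11 of up to 110 bases had medians of 1.33 and 0.00, with 8 and 3 at least 2-fold higher, and the 7 longer ones had medians of -0.14 and -0.24, with 2 and 1. In WT the median scaled counts per kilobase were 680 for these 11 and 207220 for these 7. The division at 110 bases was chosen after the values were seen, and the part of length or of level in the result was not tested.

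**Figure D5:**
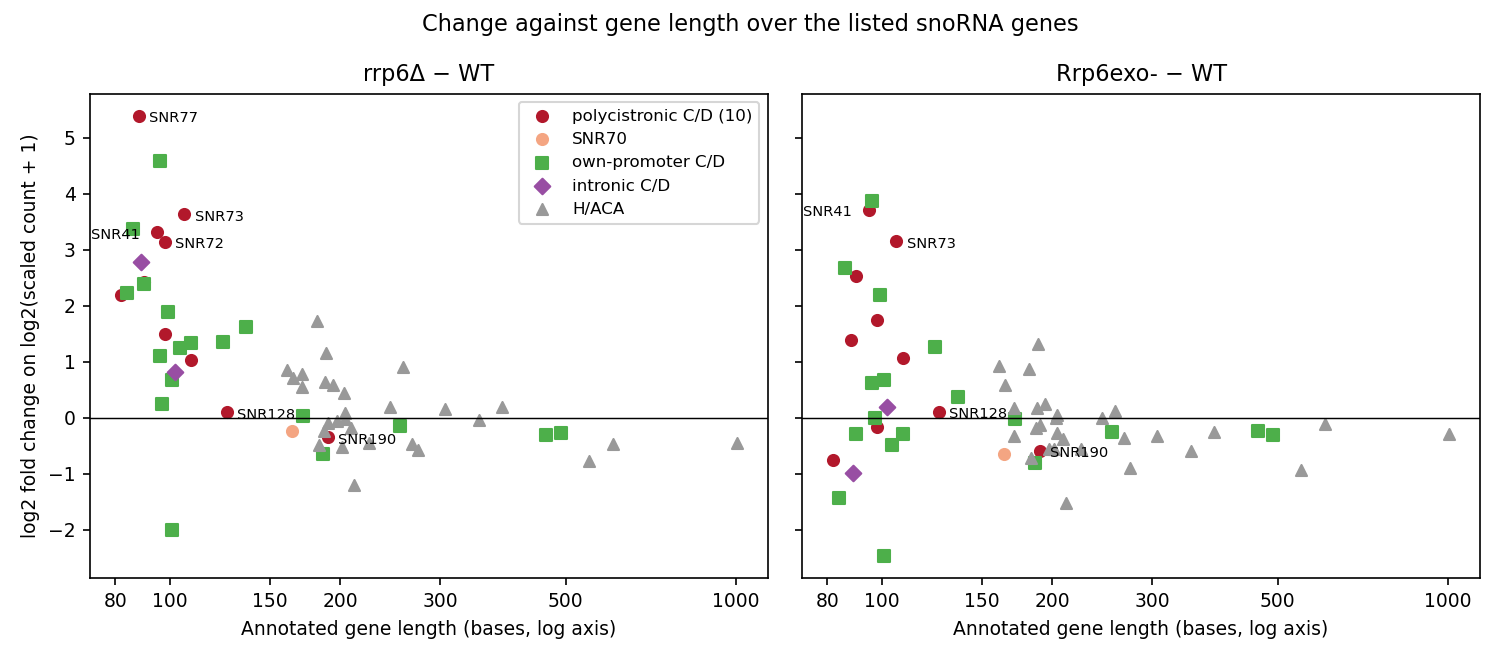
Log2 fold change (y axis) against annotated gene length (log x axis, bases) for the listed snoRNA genes, in *rrp6Δ* and in Rrp6exo- against WT. The genes with a log2 fold change above 2 in either panel are of 109 bases or less, and the H/ACA genes, of 161 bases or more, lie between -1.52 and 1.73.

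The genes next to the clusters were read in the same fits. Of the nearest listed genes on each side (*DAS1* and *RPA34*, *NVJ2* and *ASR1*, *RML2* and *PAU2*, *MID2* and *RPS25B*, *SEC59* and *BUD22*) limma called none. With the block, *RML2* (log2 fold change -0.30, limma adjusted p = 0.0400) and *RPS25B* (-0.42, limma adjusted p = 0.0173) fell in Rrp6exo- against WT. In that fit 7.04% of all genes were called lower. *BUD22*, which starts 216 bases beyond *SNR72* on the same strand, had 2354 and 2140.0 scaled counts in *rrp6Δ*, 2703 and 1707 in Rrp6exo-, and 2034 and 1645 in WT. Both *rrp6Δ* libraries stood above both WT libraries, as did 25.1% of all genes, and Rrp6exo- overlapped both strains. The log2 fold change of *BUD22* in *rrp6Δ* against WT was 0.30 (limma adjusted p = 0.587, and 0.141 with the block). *SEC59*, on the other side of the cluster and on the opposite strand, also had both *rrp6Δ* libraries above both WT libraries. *NVJ2*, *ASR1*, *RML2* and *RPS25B* had both *rrp6Δ* libraries below both WT libraries, as did 24.9% of all genes. For *DAS1*, *RPA34*, *PAU2* and *MID2* the 2 strains overlapped.

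A set of 37 genes, all listed, covered C/D snoRNP proteins, their assembly factors and factors of snoRNA processing. The last group included exosome subunits, the TRAMP polyadenylation complex and factors of transcription termination. Of the 37, limma called none in either comparison with WT. With the block 7 rose and 1 fell in *rrp6Δ*, beside 5.43% of all genes called higher and 6.04% lower, and 7 rose and 0 fell in Rrp6exo-, beside 5.7% and 7.04%. *RNT1*, which encodes the enzyme that cuts the polycistronic precursors, averaged 2222 ± 167 scaled counts in *rrp6Δ*, 2083 ± 418 in Rrp6exo- and 1722 ± 293 in WT (SD, n = 2 each), and its log2 fold change of 0.38 in *rrp6Δ* passed with the block (limma adjusted p = 0.0361; 0.373 without it). *NRD1*, which encodes a factor of snoRNA transcription termination, had log2 fold changes of 0.69 in *rrp6Δ* and 1.09 in Rrp6exo- (limma adjusted p with the block 0.00518 and 0.000806; 0.147 and 0.0677 without it). The other genes that rose with the block were *RSA1*, *RAI1*, *AIR2* and *NAB3* in both strains, *RRP45* in *rrp6Δ*, and *AIR1* and *PCF11* in Rrp6exo-, all by 0.60 or less on the log2 scale. *SNU13* fell by 0.30 in *rrp6Δ* (limma adjusted p with the block 0.0344; 0.247 without it). *NOP1* and *RAT1* had log2 fold changes of -0.27 and 0.05 in *rrp6Δ* and 0.07 and 0.01 in Rrp6exo-, with no call in either fit.

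Of 5625 other genes with a mean scaled count of at least 50, the 3 whose log2 values over the 6 libraries lay closest to the mean pattern of the 10, after each gene's own mean was subtracted, were *YNL228W*, *YER137W-A* and *YOR200W*. Their root mean square distances from that pattern were 0.41, 0.44 and 0.45 on the log2 scale. *YNL228W* had 219.9 and 231 scaled counts in *rrp6Δ*, 174 and 179 in Rrp6exo-, and 68.8 and 66.5 in WT. Both mutant strains stood above WT and *rrp6Δ* above Rrp6exo-, an order that follows from choosing the gene by its closeness to the pattern of the 10.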

How the data were processed

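Total RNA of the 6 libraries was depleted of ribosomal RNA and sequenced by the authors with a stranded kit as paired reads of 50 bases. Per the sources, STAR placed the reads on sacCer3 (R64) in a pair of passes, Picard 1.124 handled the alignments, HTSeq 0.5.3 gave gene counts, and DESeq normalized them; the strand setting of the counting is not given in the sources used here. The values deposited by the authors are scaled counts, a signal equal to the count over a size factor of its library. All values were whole multiples of the worth of 1 read (tolerance 0.001), so reads were recovered. Reads without molecular identifiers carry counting error only in the intervals given. Replicate numbers are those of the labels, for separately selected clones.

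All libraries entered a single fit of limma 3.58.1 (run in R 4.3.3), the main test, in which log2(scaled count + 1) depended on strain alone, with a variance trend. The minimum sum over libraries was 10, which every gene met, and p-values were adjusted by Benjamini-Hochberg over 6277 genes, at a threshold of 0.05. The change between the replicates of a strain correlated over genes at r of 0.59 (*rrp6Δ* and WT), 0.55 (Rrp6exo- and WT) and 0.46 (*rrp6Δ* and Rrp6exo-), so the replicate numbers were read as pairing the libraries, and blocked values are given where they change a call. Alternatives were the block, edgeR 4.0.16 and DESeq2 1.42.0 on recovered reads, pseudocounts of 0.5 and 10, a minimum of 10 on the mean scaled count, other scalings, no trend, only the 4 libraries compared, and each library left out. The fits were tested on simulated data, where DESeq2 made more false calls than limma or edgeR, so its calls stand as an alternative only. The limit on false calls was raised for the alternatives after the DESeq2 result was seen. The simulated data held no replicate effect, so they cannot rank fits with the block against fits without it. Gene positions, targets and sequences came from RefSeq (R64), to which 5818 of the listed names matched and 459 did not.

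The members and the gene lists were chosen with earlier results of these data known. Named genes are the 10 snoRNAs, *RRP6*, the nearest listed genes, processing genes that passed with or without the block, *RNT1*, *RAT1* and *NOP1*, and the 3 genes closest in pattern; *SNR70* and *BUD22* are given as neighbours. Exact permutation tests compared ratios within a library.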

Additional observations from a re-analysis of the deposited data

How the results depend on the processing

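With the replicate block, the 10 genes gave 6 calls in *rrp6Δ* against WT and 4 in Rrp6exo- against WT, in limma and in edgeR, against 1 and 1 in limma without it, and DESeq2 gave 5, 3 and, for *rrp6Δ* against Rrp6exo-, 2. In *rrp6Δ* against WT, scaling libraries to 1 total or to 1 upper quartile gave 2, the 4 libraries alone gave 0, and leaving out 1 library gave 0 to 1; in Rrp6exo- against WT leaving out 1 library gave 0 to 1, and in *rrp6Δ* against Rrp6exo- 0. Over all genes the calls in *rrp6Δ* against WT were 11, with 720 (limma block), 717 (edgeR block), 504 (DESeq2), 25 (same total), 17 (no trend), 1 (4 libraries) and 1 to 3 (1 library left out). In Rrp6exo- against WT they were 7, with 800, 797, 520, 37, 20, 3 and 0 to 3 in the same order, and 21 with the same upper quartile. In *rrp6Δ* against Rrp6exo- they were 1, with 2 under either block, 45 under DESeq2, 2 with 4 libraries and 1 to 2 with 1 library left out. The causes of these differences were not tested.

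The differences of single genes that changed sign passed the threshold under no alternative run. In *rrp6Δ* against Rrp6exo- these were *SNR61* (0.017 in edgeR and 0.00016 in DESeq2), *SNR76* (0.0043 in edgeR and 0.011 with the same total) and *SNR128* (0.0058 in edgeR, 0.0065 in DESeq2, 0.032 with the same total and 0.016 with the same upper quartile). With 1 library left out, the log2 fold changes that took both signs were *SNR128* (-0.14 to 0.34) and *SNR190* (-0.72 to 0.020) in *rrp6Δ* against WT, *SNR55* (-0.40 to 0.062), *SNR67* (-1.83 to 0.31) and *SNR77* (-0.20 to 2.98) in Rrp6exo- against WT, and *SNR61* (-0.67 to 0.45), *SNR76* (-0.32 to 0.26), *SNR128* (-0.25 to 0.23) and *SNR190* (-0.13 to 0.60) in *rrp6Δ* against Rrp6exo-. The minimum mean scaled count of 10 removed *SNR61*, so no value of it could be given there. With 2 libraries a strain and 0 to 24 reads a library, *SNR41*, *SNR61* and *SNR76* are limited by counting error.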
